A study of Mus musculus with 9 samples.

Results

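The genes described here are 10 markers of astrocytes, Aldh1l1, S100b, Gfap, Aqp4, Hepacam, Apoe, Cst3, Glul, Gja1 and Clu, taken as every probe set of the array that carries 1 of these gene symbols. They made up 10 of the 18193 genes and 26 of the 45037 probe sets measured. Messenger RNA was measured in neurospheres of adult mouse olfactory bulb stem cells (aOBSCs), floating clusters of neural stem and progenitor cells that grow in medium with the mitogens FGF-2 and EGF. The growth factors, at 20 ng/ml each, were added daily in the control (Ctr), at intervals of 2 days in C2 and at intervals of 4 days in C4, and 3 arrays were hybridised per condition. Each regime was kept for 2 further passages before the cells were assayed. At collection, 7 days after plating, C2 cells had been without fresh factors for 1 day and C4 cells for 3 days. The interval, the time since the last addition and effects of the earlier passages under a regime cannot be told apart. The cells came from adult CD1 or C57Bl/6 mice, with mice of 7 and 15 months named for the array experiments. Which array came from which animals is not given in the sources used here, and p-values measure the spread between these arrays.

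Astrocytes are the glial cells that clear glutamate and potassium around synapses, supply lipids to neurons and line the blood vessels of the brain. They share much of their gene expression with the stem cells of the adult brain, which are themselves a kind of astrocyte, so that several of these markers are also found in neural stem cells. GFAP, the filament protein most used to stain astrocytes, is made late in astrocyte differentiation, in response to STAT3 signalling and to NFI transcription factors.

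Values are log2 GCRMA values, on which a difference of 1 is a doubling, and values under 4 lie near the floor of these arrays, where transcripts without signal are placed. The conditions were compared with limma on all 9 arrays, with p-values adjusted over all 45037 probe sets, and a gene is called where the adjusted p of its probe set of highest mean is under 0.05. The array medians over the 18380 probe sets with a value over 4 on at least 3 arrays lay between 7.09 and 7.20, and the median difference of all genes was 0 in each comparison. Of the 10 markers, all but Gfap were over 4 on at least 3 arrays. Levels are compared for 1 probe set between conditions, never between probe sets. Each difference in messenger RNA is one of bulk cultures, in which more cells of a type and more RNA per cell cannot be told apart.

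In C4, 6 of the 10 astrocyte markers rose and 0 fell. The 6 were the folate enzyme gene Aldh1l1, the calcium-binding protein gene S100b, the water channel gene Aqp4, the adhesion molecule gene Hepacam and the genes of the secreted proteins Apoe and Cst3. Over all genes 5.65% were called higher and 3.55% lower in C4, and among the 9390 genes with a value over 4 on at least 3 arrays 10.7% were higher and 6.78% lower. The same shares belong beside the counts of the gene lists below, where 1 called gene of 10 is near them. The markers and lists were chosen with earlier results of these data known, so their counts are no independent evidence. The median difference over the 10 markers was 0.73, against 0 over all genes and 0.045 over the 9390 genes. The count of 0 lower genes was also 0 at an unadjusted p under 0.05 and 0 with a robust variance prior. At the stricter threshold of an adjusted p under 0.01 and a difference of at least 1, 3 markers were higher (Aldh1l1, S100b and Hepacam), against 0.456% of all genes. This count was 1, Aldh1l1 alone, without C4 replicate 2 or C4 replicate 3 and with centred arrays, and 2 without any other array. In C2, 1 marker rose (Apoe) and 1 fell (Aldh1l1), against 1.67% and 0.846% of all genes and 3.21% and 1.59% of the 9390 genes.

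**Figure D1:**
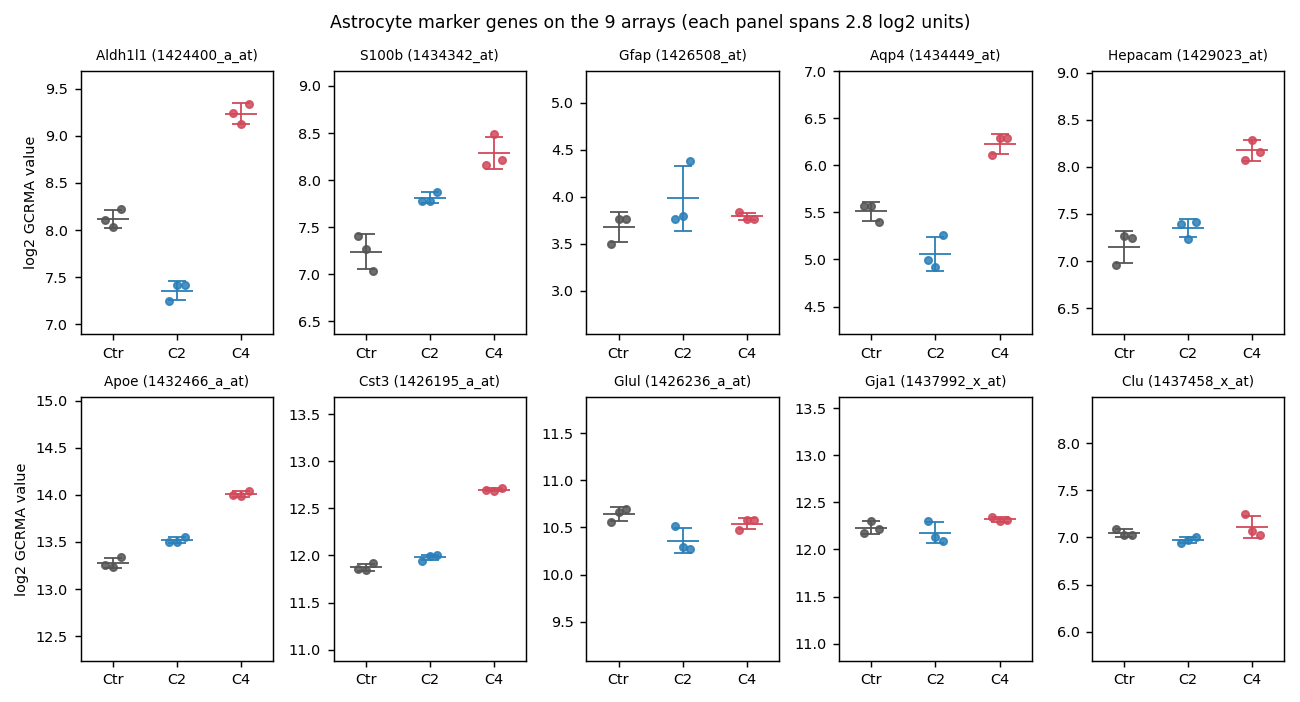
Log2 GCRMA value of each marker by its probe set of highest mean on the 9 arrays, with points for arrays and bars for the mean ± SD of 3 arrays per condition. Every panel spans the same 2.8 log2 units around its own middle. In Aldh1l1, S100b, Aqp4, Hepacam, Apoe and Cst3 the 3 C4 arrays lie above all Ctr and C2 arrays, whereas in Gfap, Glul, Gja1 and Clu the C4 and Ctr arrays overlap.

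The promoters of 4 markers are shown because they set genes that rose together beside the marker that was near the floor. RefSeq windows of 300 bases (250 before and 50 after a transcript start, build GRCm38.p6) were given for 8 of the 10 markers, in 10 windows, and not for Aqp4 and Clu. The motifs searched on both strands were TTCNNNGAA for STAT factors, the full palindromic NFI motif and its shorter form TTGGCA, which lies within it, and TATAAA for the TATA box. Over 32851 windows of the same length, TTCNNNGAA was in 8.30%, the full NFI motif in 0.0365%, TTGGCA in 14.1% and TATAAA in 13.6%. Each stretch below is 200 bases on the strand of the gene, written 5′ to 3′, with a motif match in capitals. The Aldh1l1 stretch (chr6:90550568-90550767, + strand) ends at the base before the annotated gene, as do those of S100b (chr10:76253636-76253835, + strand) and Cst3 (chr2:148875513-148875712, - strand). The Gfap stretch (chr11:102897194-102897393, - strand) runs to base 7 of the transcript, where its match ends.
Aldh1l1: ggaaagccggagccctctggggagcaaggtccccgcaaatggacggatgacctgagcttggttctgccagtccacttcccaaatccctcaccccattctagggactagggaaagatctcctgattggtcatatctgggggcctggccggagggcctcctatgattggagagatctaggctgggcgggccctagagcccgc
S100b: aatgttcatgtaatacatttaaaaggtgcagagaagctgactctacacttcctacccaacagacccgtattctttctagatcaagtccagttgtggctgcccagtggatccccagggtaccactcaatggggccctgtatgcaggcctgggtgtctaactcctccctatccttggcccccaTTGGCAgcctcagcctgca
Cst3: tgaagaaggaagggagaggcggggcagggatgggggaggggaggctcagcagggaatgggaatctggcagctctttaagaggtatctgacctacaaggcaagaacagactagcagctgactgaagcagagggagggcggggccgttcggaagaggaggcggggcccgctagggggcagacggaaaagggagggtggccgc
Gfap: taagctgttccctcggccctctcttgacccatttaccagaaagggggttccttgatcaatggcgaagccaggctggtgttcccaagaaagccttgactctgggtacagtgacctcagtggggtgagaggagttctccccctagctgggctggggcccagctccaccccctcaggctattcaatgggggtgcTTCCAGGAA

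In the Gfap window the STAT motif lay across the transcript start, from base -2 to base 7, and it was the only marker window with this motif. The shorter NFI motif was found in the windows of S100b (bases -19 to -14), Hepacam (-39 to -34) and 1 of 3 Apoe windows (-57 to -52). Another Apoe window held the TATA motif on both strands, in overlapping matches (-100 to -95 and -96 to -91). The windows of Aldh1l1, Cst3, Glul and Gja1 held none of these letters, and the full NFI motif was in no marker window. CpG dinucleotides numbered 13 in the Cst3 window, 9 in that of Aldh1l1 and 3 in those of S100b and Gfap, against a median of 7 over all windows. The Hepacam window belongs to a transcript start at 37367606, inside the gene annotated from 37367356. The 3 Apoe windows also lie inside the annotated gene, which starts at 19701310, the one with TTGGCA at a transcript start of 19698398. Of the genes that rose in C4, S100b thus held the shorter NFI motif before its gene start. Hepacam and Apoe held it within the annotated gene, and the windows of Aldh1l1 and Cst3 did not hold it.

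Aldh1l1 had the widest range of the markers across the conditions. It encodes cytosolic formyltetrahydrofolate dehydrogenase, an enzyme that takes carbon units out of the folate pool and that marks astrocytes throughout the brain (chromosome 6, 90550768 to 90599171 on GRCm38). The values were 8.10, 8.04 and 8.22 in Ctr, 7.24, 7.42 and 7.42 in C2, and 9.24, 9.12 and 9.34 in C4. The conditions did not overlap, and the order was C2 below Ctr below C4. C4 exceeded Ctr by 1.11 (standard error 0.080, adjusted p = 0.000783), a fold of 2.16, and C2 by 1.88 (adjusted p = 9.01e-05), a fold of 3.67. C2 was lower than Ctr by a difference of -0.76 (adjusted p = 0.0107), and with a robust variance prior this call was lost (adjusted p = 0.0728). A further probe set of the gene stood near the floor on every array, with a mean of 2.27.

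Mitochondrial enzymes of folate metabolism moved the opposite way from Aldh1l1 in C4. Of 8 measured genes of this list, 4 fell and 1 rose in C4, and 3 rose and 0 fell in C2 (0 lower at an unadjusted p under 0.05). With a robust variance prior 0 passed in either direction in C2, and in C4 4 were lower and 0 higher. Aldh1l2, the mitochondrial relative of Aldh1l1, stood at 9.51 ± 0.011 under Ctr, at 9.97 ± 0.031 under C2 and at 8.60 ± 0.14 under C4 (mean ± SD, n = 3 each). Its means were in the order C4, Ctr and C2 from the lowest, the reverse of those of Aldh1l1. The differences of Aldh1l2 from Ctr were 0.46 in C2 (adjusted p = 0.0245) and -0.91 in C4 (adjusted p = 0.000728). Mthfd2, a mitochondrial dehydrogenase and cyclohydrolase of folate intermediates, differed from Ctr by 0.66 in C2 (adjusted p = 0.0126) and by -1.07 in C4 (adjusted p = 0.000667). Shmt2, the mitochondrial serine hydroxymethyltransferase, rose by 0.48 in C2 (adjusted p = 0.0246) and in C4 was 2-fold lower than in Ctr (adjusted p = 0.000588). Mthfd1l, the mitochondrial formate-producing ligase, was lower by a difference of -0.82 in C4 (adjusted p = 0.000875), and its C2 difference of 0.07 did not pass. Mthfd1, the cytosolic enzyme of the same pathway, rose by 0.44 in C4 (adjusted p = 0.0294). The call of Mthfd1 was lost with a robust variance prior (adjusted p = 0.0848) and without Ctr 2 or any 1 of the C2 and C4 arrays, and its other probe sets gave 0.19 and -0.40 (adjusted p = 0.16 and 0.1). Shmt1, the cytosolic form of Shmt2, had a difference of -0.29 in C4 (adjusted p = 0.103).

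**Figure D2:**
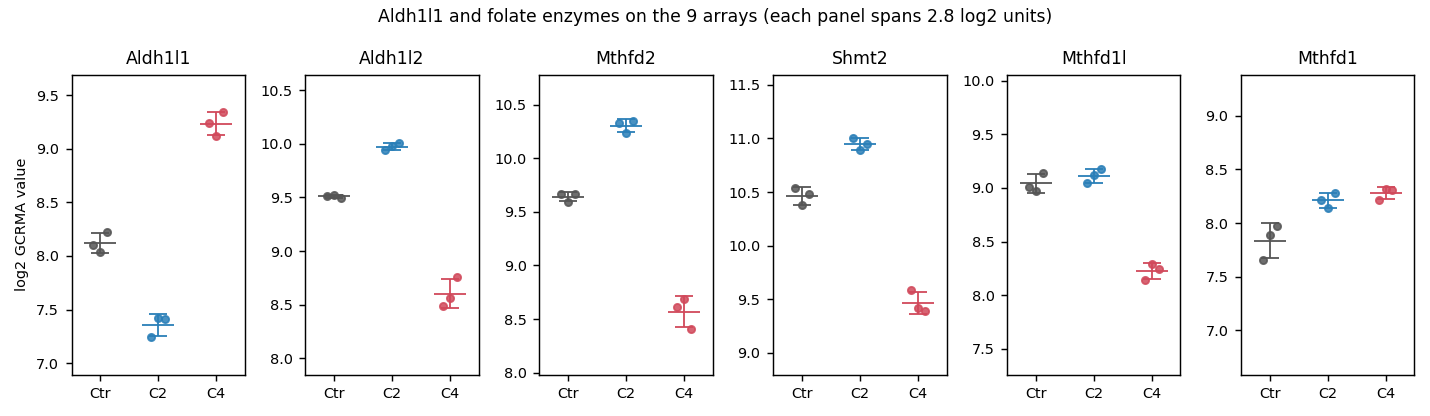
Log2 GCRMA values of Aldh1l1 and 5 further folate enzyme genes on the 9 arrays, with points for arrays and bars for the mean ± SD of 3 arrays per condition. Aldh1l1 was lowest in C2 and highest in C4, and Aldh1l2, Mthfd2 and Shmt2 were highest in C2 and lowest in C4.

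Glul, which encodes glutamine synthetase, the enzyme by which astrocytes turn glutamate and ammonia into glutamine, was not called in any comparison (chromosome 1, 153899929 to 153909723). Its values were 10.56, 10.67 and 10.70 in Ctr, 10.51, 10.30 and 10.27 in C2, and 10.47, 10.58 and 10.58 in C4. The C4 arrays overlapped those of Ctr, and the C2 arrays were all below those of Ctr. C4 minus Ctr was -0.10, with a 95% interval from -0.28 to 0.07, and C2 minus Ctr was -0.28 (adjusted p = 0.163). The 2nd probe set of Glul gave -0.28 in C2 (adjusted p = 0.344) and -0.0037 in C4.

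Among the partners of Glul in glutamate and ammonia handling, 1 of 9 measured genes rose in C4 and 2 fell, Glul among the 9. Glud1, glutamate dehydrogenase, rose by 0.48 (adjusted p = 0.00194). Asns, which uses glutamine to make asparagine, fell by 0.86 in C4 (adjusted p = 0.000143) and rose by 0.61 in C2 (adjusted p = 0.00218). Psat1, an aminotransferase of serine synthesis that uses glutamate, fell by 0.48 in C4 (adjusted p = 0.0205), a call lost without any 1 of the Ctr arrays. Another Psat1 probe set had a C4 difference of -0.64 (adjusted p = 0.00337). The glutamate transporter genes of astrocytes, Slc1a3 (GLAST) and Slc1a2 (GLT-1), had differences of 0.31 and 0.55 in C4 that did not pass by the probe set of highest mean (adjusted p = 0.0584 and 0.246). Of the other 5 probe sets of Slc1a3, however, 3 were called higher in C4 (0.35, 0.72 and 0.63, adjusted p = 0.000802, 0.000604 and 0.0356), and of the other 4 of Slc1a2 none was called. The C4 values of Slc1a2 had an SD of 0.44, with 1 array at 9.60 and the others at 8.82 and 8.84.

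S100b encodes a calcium-binding protein that astrocytes hold in the cytoplasm and release (chromosome 10, 76253836 to 76261319). Its promoter stretch is the one with the TTGGCA match. It measured 7.41, 7.27 and 7.04 in Ctr, 7.78, 7.78 and 7.88 in C2, and 8.16, 8.49 and 8.21 in C4. The conditions did not overlap, with C2 between Ctr and C4. C4 exceeded Ctr by 1.05 (standard error 0.12, adjusted p = 0.00407), a fold of 2.07. The steps from Ctr to C2 (0.57, adjusted p = 0.0845) and from C2 to C4 (0.47, adjusted p = 0.0872) did not pass. The 2nd S100b probe set gave 1.51 in C4 (adjusted p = 0.00363) and 0.76 in C2 (adjusted p = 0.0967). S100b is also among the genes that the study picked on these arrays, so its direction is no independent evidence. Of 7 measured genes of the S100 list, 1 further gene rose in C4, S100a16 by 0.94 (adjusted p = 0.00227), and 0 fell (0 at an unadjusted p under 0.05 and with a robust variance prior).

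Gfap, the gene of the intermediate filament protein of astrocytes, stood near the floor in all conditions (chromosome 11, 102887336 to 102897200). Its probe set of highest mean read 3.50, 3.77 and 3.77 in Ctr, 3.77, 3.80 and 4.38 in C2, and 3.84, 3.77 and 3.77 in C4. The 1 value over 4 was on a C2 array, and the conditions overlapped. C4 minus Ctr was 0.11, with a 95% interval from -0.30 to 0.53 (adjusted p = 1). The 2 other probe sets of Gfap did not exceed 4 on any array, and neither was called in any comparison. A change in Gfap below the detection range of these probe sets could not be seen.

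Of 7 measured genes of the intermediate filament list, 1 fell in C4 and 0 rose (0 at an unadjusted p under 0.05 and with a robust variance prior). Vim, which encodes vimentin, the filament protein of radial glia, stem cells and young astrocytes, measured 14.92 ± 0.14 in Ctr and 14.53 ± 0.07 in C4 (mean ± SD, n = 3), a difference of -0.40 (adjusted p = 0.0256). The call of Vim was lost without Ctr 1, Ctr 2, C4 2, C4 3 or any 1 of the C2 arrays. Another Vim probe set was lower in C4 (-0.34, adjusted p = 0.00373) and in C2 (-0.30, adjusted p = 0.0187). A further one was not called, with a C4 difference of -0.055. Nes, the gene of nestin, had a difference of 0.41 that did not pass (adjusted p = 0.396), with SDs of 0.25 in Ctr and 0.28 in C4.

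Aqp4 encodes the water channel of the astrocyte endfeet, which surround blood vessels (chromosome 18, 15389394 to 15410982). The values were 5.57, 5.57 and 5.39 in Ctr, 4.99, 4.92 and 5.26 in C2, and 6.11, 6.29 and 6.29 in C4. The 3 conditions did not overlap, in the same order as for Aldh1l1. C4 exceeded Ctr by 0.72 (standard error 0.11, adjusted p = 0.0108), a fold of 1.65, and C2 by 1.17 (adjusted p = 0.00175), a fold of 2.26. The difference between C2 and Ctr was -0.45 (adjusted p = 0.12). Another Aqp4 probe set rose by 0.94 in C4 against Ctr (adjusted p = 0.0381), with a C2 difference of -0.20 and overlap of the C2 and Ctr arrays, and a further one was near the floor.

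Hepacam encodes GlialCAM, an adhesion molecule that binds MLC1 and the chloride channel ClC-2 at astrocyte junctions (chromosome 9, 37367356 to 37386572). It measured 6.95, 7.26 and 7.24 in Ctr, 7.40, 7.24 and 7.41 in C2, and 8.07, 8.29 and 8.16 in C4. The C2 arrays overlapped those of Ctr, and all C4 arrays were higher. C4 exceeded Ctr by 1.02 (standard error 0.10, adjusted p = 0.00253), a fold of 2.03, and C2 by 0.83 (adjusted p = 0.00622). C2 differed from Ctr by 0.20 (adjusted p = 0.673). The 2nd Hepacam probe set rose by 0.76 in C4 (adjusted p = 0.00171).

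Gja1 encodes Cx43, the main connexin of astrocyte gap junctions, and was not called in any comparison (chromosome 10, 56377300 to 56390419). Its probe set of highest mean read 12.18, 12.31 and 12.21 in Ctr, 12.30, 12.14 and 12.09 in C2, and 12.35, 12.30 and 12.32 in C4. The conditions overlapped, and C4 minus Ctr was 0.089 with a 95% interval from -0.05 to 0.23. The 6 probe sets of Gja1 differed in sign: C4 minus Ctr ranged from -0.17 (adjusted p = 0.325) to 0.37 (adjusted p = 0.222), and 1 probe set held the same value of 11.13 on all arrays. No direction can be given for this gene.

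Of 9 measured genes that belong with Aqp4, Hepacam and Gja1 at junctions and endfeet, 2 rose in C4 and 0 fell (1 lower at an unadjusted p under 0.05 and 0 with a robust variance prior). Kcnj10, the potassium channel Kir4.1 of astrocytes, stood at 7.94 ± 0.16 under Ctr, at 8.06 ± 0.037 under C2 and at 8.98 ± 0.05 under C4 (mean ± SD, n = 3 each), a C4 difference of 1.04 (adjusted p = 0.000924). Mlc1, the membrane protein that GlialCAM binds, rose by 0.22 (adjusted p = 0.00705), a call lost with a robust variance prior (adjusted p = 0.055). Clcn2, the gene of ClC-2, and Gjb6 and Gjb2, the connexins that accompany Cx43 in mature astrocytes, were near the floor (means of 2.36, 2.27 and 2.33).

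Apoe encodes apolipoprotein E, the carrier of the lipids that astrocytes secrete (chromosome 7, 19696244 to 19701310). The values were 13.26, 13.23 and 13.34 in Ctr, 13.49, 13.50 and 13.56 in C2, and 14.00, 13.98 and 14.04 in C4. The conditions did not overlap, and the level rose at each step of the interval. C2 exceeded Ctr by 0.24 (adjusted p = 0.0251) and C4 exceeded Ctr by 0.73 (standard error 0.033, adjusted p = 0.000158), folds of 1.18 and 1.66. C4 exceeded C2 by 0.49 (adjusted p = 0.000553). The call in C2 was lost with a robust variance prior (adjusted p = 0.126), with the arrays of the 2 conditions alone (adjusted p = 0.0888), and without 1 array in 6 of 9 cases, namely Ctr 1 or 2, any C2 array or C4 1 (adjusted p from 0.0515 to 0.0857).

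Of 10 measured genes of lipoprotein supply, 1 rose and 1 fell in C4, beside 10.7% higher and 6.78% lower among the 9390 genes. Abca1, the transporter that loads lipid onto apolipoprotein E, rose by 0.69 in C4 (adjusted p = 0.00153) and by 0.35 in C2 (adjusted p = 0.0465). The C2 call of Abca1 was lost with a robust variance prior (adjusted p = 0.184) and in 12 of 16 other fits in all, and its other 2 probe sets did not pass in C2 (adjusted p = 0.268 and 0.117). Vldlr, a receptor that binds apolipoprotein E, fell by 0.91 in C4 (adjusted p = 0.000944) and had a C2 difference of -0.09 that did not pass.

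Cst3 encodes cystatin C, a secreted inhibitor of cysteine proteases (chromosome 2, 148871722 to 148875512). Its values were 11.86, 11.85 and 11.92 in Ctr, 11.94, 11.99 and 11.9993 in C2, and 12.69, 12.69 and 12.72 in C4. The C2 arrays were just above those of Ctr and the C4 arrays well above both. C4 exceeded Ctr by 0.82 (standard error 0.024, adjusted p = 3.77e-05), a fold of 1.77, the smallest adjusted p of the 10 markers in this comparison. C2 exceeded Ctr by 0.10 (adjusted p = 0.117). Of 9 measured genes of other cystatins and cathepsins, 1 rose in C4, the protease gene Ctsb by 0.23 (adjusted p = 0.035), and 0 fell (1 at an unadjusted p under 0.05). With a robust variance prior 0 passed in either direction (Ctsb adjusted p = 0.128). Among the 9390 genes, 10.7% were higher and 6.78% lower in C4.

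Clu encodes clusterin, a secreted chaperone that also binds lipids, and was not called (chromosome 14, 65968483 to 65981548). Its probe set of highest mean read 7.09, 7.02 and 7.02 in Ctr, 6.94, 6.98 and 7.005 in C2, and 7.25, 7.07 and 7.02 in C4. C4 minus Ctr was 0.066, with a 95% interval from -0.07 to 0.21, and the arrays of C4 and Ctr overlapped. Another Clu probe set had all 3 C4 arrays above the Ctr arrays and a difference of 0.31 (adjusted p = 0.0866). A further one held the value 5.05 on all arrays, and 3 of the 4 Clu probe sets and 4 of the 6 of Gja1 are of the type (_x_at) that can also pick up similar transcripts.

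**Figure D3:**
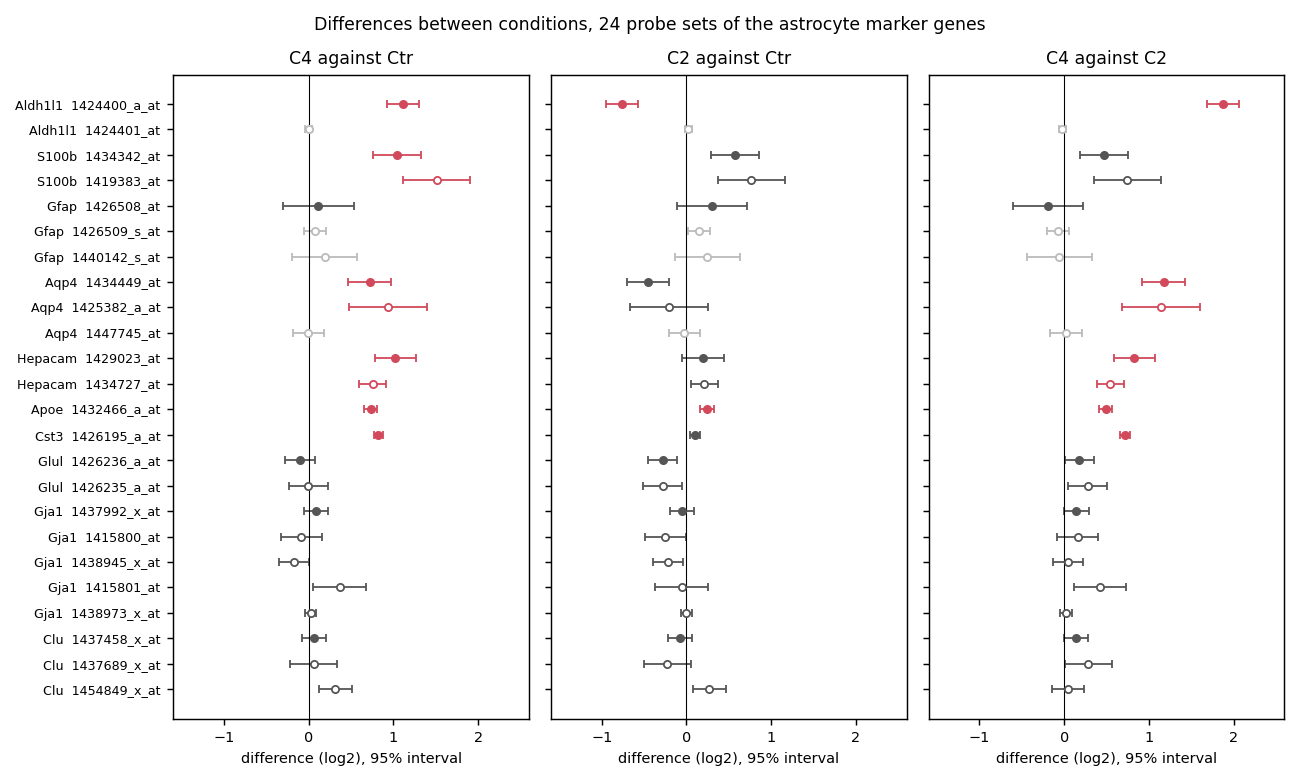
Differences between conditions on the log2 scale with 95% intervals from limma, for the 24 probe sets of the markers whose values varied. Filled points are the probe sets of highest mean, red marks an adjusted p under 0.05 and light grey marks probe sets that did not exceed 4 on any array. In C4 against Ctr the called probe sets lie between 0.72 and 1.51, and in C2 against Ctr the 2 called ones lie on opposite sides of 0.

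The comparisons of C2 and of C4 with Ctr share the 3 Ctr arrays. Side by side, the C2 differences of the 10 markers ranged from -0.76 to 0.57, with a median of 0.025, and the C4 differences from -0.10 to 1.11. The C4 mean was the highest of the 3 conditions in 8 markers, and the C2 mean was the lowest in 5 (Aldh1l1, Aqp4, Glul, Gja1 and Clu) and between the others in 4 (S100b, Hepacam, Apoe and Cst3). Between C4 and C2, 5 markers were called higher in C4 and 0 lower, against 4.29% and 3.49% of all genes and 8.17% and 6.68% of the 9390 genes. The median difference was 0.48, and the count of 0 lower was also 0 at an unadjusted p under 0.05 and with a robust variance prior. At the stricter threshold 2 markers were higher in C4 than in C2 (Aldh1l1 and Aqp4), against 0.407% of all genes, and without C2 replicate 1 the count was 1 (Aldh1l1).

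The count of called markers in C2 depended on the test more than that in C4. When probe sets not over 4 on at least 3 arrays were left out of the fit, 5 of 9 markers passed in C2, with S100b (adjusted p = 0.0152) and Apoe (adjusted p = 0.00472) higher and Aldh1l1 (adjusted p = 0.00118), Aqp4 (adjusted p = 0.0315) and Glul (adjusted p = 0.0353) lower. In that fit 7.25% of genes were called higher and 4.20% lower in C2. With a robust variance prior 0 of 10 markers passed in C2, where 45 probe sets of the whole array did. At an unadjusted p under 0.05, 3 markers were higher and 3 lower in C2.

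A wider list of 40 astrocyte genes, none of them among the 10 markers, was compared in the same way. It too was chosen with earlier results of these data known, and it holds genes that the study picked on these arrays. Of 38 measured, 20 rose and 1 fell in C4, 6 rose and 1 fell in C2, and 15 were higher and 5 lower in C4 than in C2. Over all genes 5.65% were higher and 3.55% lower in C4, and 1.67% and 0.846% in C2. Between C4 and C2 the shares were 4.29% and 3.49%. The median difference of the list in C4 was 0.36, and 31 of the 38 genes were over 4 on at least 3 arrays. Pla2g7, which encodes a phospholipase that breaks down oxidised phospholipids, had the largest rise of this list in C4, from 7.12 ± 0.089 in Ctr to 9.85 ± 0.077 (mean ± SD, n = 3), a difference of 2.73 (adjusted p = 7.16e-06). Ttyh1, a membrane protein of glia, rose by 1.91 (adjusted p = 0.000144), Gpr37l1, a receptor of astrocytes, by 1.05 (adjusted p = 0.000144), and Plpp3, a lipid phosphatase, by 1.05 (adjusted p = 0.000209). Slc15a2, a peptide transporter, rose by 0.87 in C4 (adjusted p = 7.16e-06) and by 0.20 in C2 (adjusted p = 0.00614). Dbi, which encodes an acyl-CoA-binding protein, rose by 0.48 in C4 (adjusted p = 0.000156) and by 0.15 in C2 (adjusted p = 0.0331). With a robust variance prior 15 genes of the list were higher and 1 lower in C4, and 0 passed in C2.

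The 1 gene of this list that fell in C4 was Sparcl1, a secreted matrix protein of astrocytes, by 1.36 (adjusted p = 0.000143). The 1 gene that fell in C2 was Ndrg2, an astrocyte gene with growth-restraining activity, which stood at 6.31 ± 0.057 under Ctr, at 5.30 ± 0.22 under C2 and at 8.03 ± 0.15 under C4 (mean ± SD, n = 3 each). Its differences from Ctr were -1.01 in C2 (adjusted p = 0.0164) and 1.72 in C4 (adjusted p = 0.000716), the same order of conditions as for Aldh1l1 and Aqp4. The C2 call was lost with a robust variance prior (adjusted p = 0.0808), with the arrays of the 2 conditions alone and without Ctr 1, Ctr 2, Ctr 3 or C2 3. Ndrg2, Pla2g7, Ttyh1 and Fgfr3 are among the genes that the study picked on these arrays. Fgfr3, a receptor gene, rose by 1.10 in C4 (adjusted p = 0.00176). Slc7a10, Slc14a1, Cldn10 and Gjb6 were near the floor (mean of 2.27 each), and were named after their values were seen. They are among the 7 measured genes of the list that were not over 4 on at least 3 arrays, against 31 that were.

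**Figure D4:**
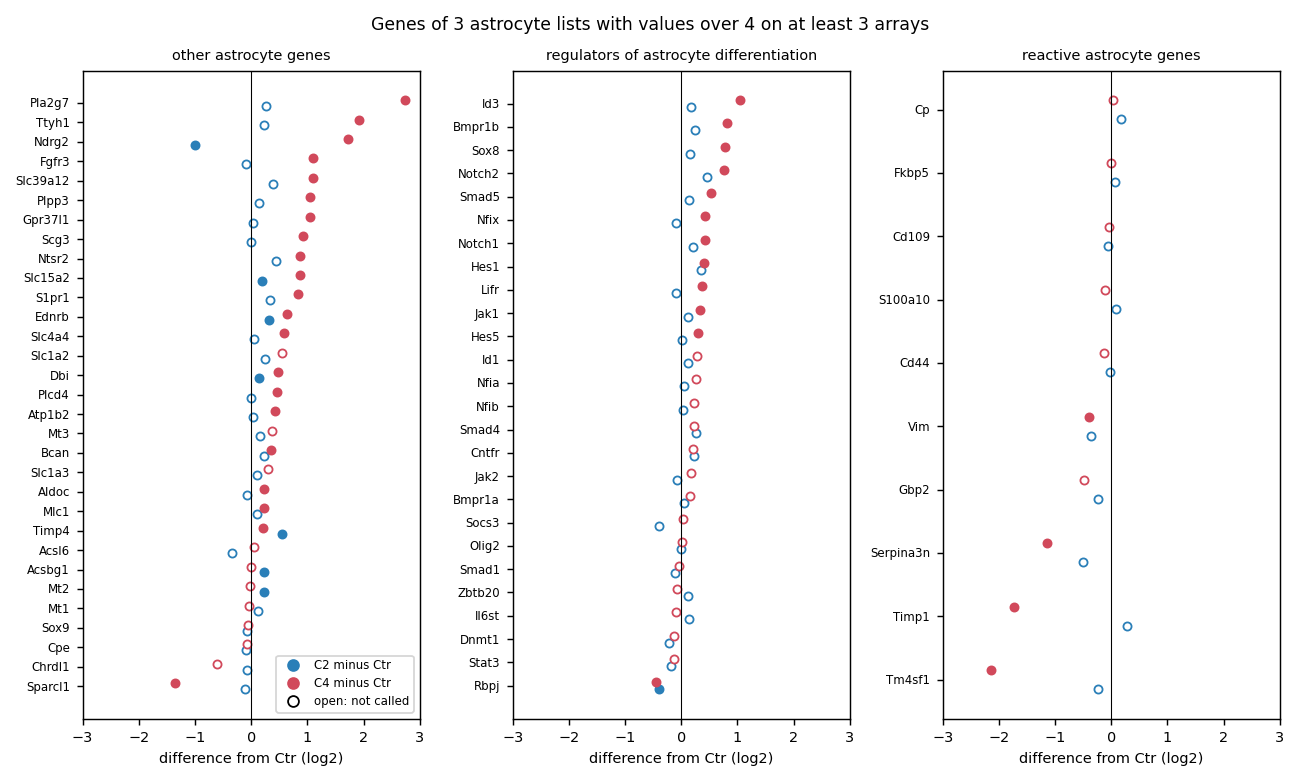
Differences from Ctr on the log2 scale for genes of 3 lists with values over 4 on at least 3 arrays, each by its probe set of highest mean, with C2 in blue and C4 in red, filled where the adjusted p was under 0.05. Most called genes of the lists of other astrocyte genes and of regulators lie to the right of 0 in C4, and the 4 called reactive astrocyte genes lie to the left.

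None of the reactive astrocyte genes, which injury and inflammation turn on, was called higher by its probe set of highest mean. Of 29 measured, 0 rose and 4 fell in C4, and 0 rose and 0 fell in C2 (at an unadjusted p under 0.05, 0 higher and 5 lower in C4 and 0 higher and 2 lower in C2, and with a robust variance prior, 0 higher and 4 lower in C4 and 0 in either direction in C2). The 4 were Serpina3n, a protease inhibitor (-1.15, adjusted p = 0.00122), Timp1, an inhibitor of matrix metalloproteinases (-1.73, adjusted p = 0.000944), Tm4sf1, a membrane protein (-2.14, adjusted p = 0.00779), and Vim, given above. On 19 of the 29 genes no value was over 4 on as many as 3 arrays, Lcn2 among them (mean 2.27). Other probe sets differed: 1 of Cp was higher in C2 (0.33, adjusted p = 0.0214), where its others were not called. Lower were 1 of Gbp2 in C4 and C2 (-0.45 and -0.35, adjusted p = 0.00185 and 0.0147) and 1 of Cd44 in C4 (-0.28, adjusted p = 0.0161). A probe set of S100a10 near the floor was also lower in C4 (-0.45, adjusted p = 0.0462).

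Of 28 measured regulators of astrocyte differentiation, 11 rose and 1 fell in C4 (7 and 1 with a robust variance prior), and 0 rose and 1 fell in C2 (at an unadjusted p under 0.05, 5 higher and 4 lower in C2, and 0 in either direction with a robust variance prior). Id3, an inhibitor of basic helix-loop-helix factors and a target of BMP signalling, rose by 1.05 in C4 (adjusted p = 0.000729), and Bmpr1b, a BMP receptor, by 0.81 (adjusted p = 0.00278). Smad5, which carries the BMP signal, rose by 0.53 (adjusted p = 0.00777). Sox8, a transcription factor of glia, rose by 0.79 (adjusted p = 0.00223), Nfix, an NFI factor, by 0.43 (adjusted p = 0.00372), and Notch2, a Notch receptor, by 0.76 (adjusted p = 0.00979). Rbpj, the DNA-binding partner of Notch, fell in both C4 (-0.46, adjusted p = 0.0013) and C2 (-0.39, adjusted p = 0.00936). The other probe sets of Rbpj were not called in C4 (adjusted p = 0.402 and 0.342) or C2 (adjusted p = 0.225 and 0.629). Those of Bmpr1b (adjusted p = 0.792 and 0.118) and Smad5 (adjusted p = 0.0962 and 0.995) were not called in C4. Other probe sets of Nfix were higher in C4 (0.53 and 0.78, adjusted p = 0.00729 and 0.00178), and its further ones, near the floor, were not called. By the probe set of highest mean Stat3 (-0.14, adjusted p = 0.456), Nfia (0.25, adjusted p = 0.215) and Nfib (0.24, adjusted p = 0.344) did not pass in C4. Other probe sets differed: 1 of the other 3 of Stat3 was higher in C4 (0.76, adjusted p = 0.00267), as were 2 of the other 6 of Nfib (0.37 and 0.38, adjusted p = 0.0153 and 0.0384), and none of the other 5 of Nfia was called. No direction can be given for Stat3.

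For the 4 markers whose values ranged over at least 1, the genes of most similar pattern were found among 9459 candidates by the root mean square distance over the 9 arrays, after the Ctr mean of each probe set was subtracted. Hepacam had the closest neighbours, Id3, Plpp3 and Acaa2, an enzyme of fatty acid oxidation, at distances from 0.072 to 0.082 on the log2 scale. The neighbours of Aqp4 were Nr4a1, Btg2 and Ifit2 (0.11 to 0.13), of which the first and the second are early response genes. Nr4a1 had a difference of -0.48 in C2 and 0.70 in C4, next to -0.45 and 0.72 for Aqp4. Aldh1l1 had Tmem178, Dll3 and Neat1 (0.15 to 0.25), Dll3 being a Notch ligand and Neat1 a long noncoding RNA. Tmem178 was near the floor in Ctr and C2 (means of 3.16 and 2.58) and stood at 4.41 in C4. S100b had Phxr4, Ramp1 and Gm15050 (0.11 to 0.15).

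Markers of the other cells that such cultures can hold were examined beside the astrocyte markers. Of 9 measured genes of the oligodendrocyte lineage, 5 rose in C4, and 2 fell in C2. With a robust variance prior 4 were higher in C4, and 0 were lower in C2 (adjusted p = 0.0965 for Gpr17 and 0.145 for Cnp), where 3 were lower at an unadjusted p under 0.05. The mean over this list ran from 5.55 to 5.61 in Ctr, 5.23 to 5.34 in C2 and 6.04 to 6.20 in C4. This was the order seen for Aldh1l1 and Aqp4, but Gpr17 alone weighs heavily in these means. The median differences of the list from Ctr were -0.07 in C2 and 0.26 in C4. Over its 5 genes above the floor they were -0.29 and 0.61. Gpr17, a receptor of oligodendrocyte precursors that the study also picked on these arrays, stood at 4.83 ± 0.072 under Ctr, at 3.12 ± 0.5 under C2 and at 7.53 ± 0.19 under C4 (mean ± SD, n = 3 each). Its differences from Ctr were -1.71 in C2 (adjusted p = 0.0272) and 2.70 in C4 (adjusted p = 0.00171). The C2 mean of Gpr17 lay near the floor. Cnp, an enzyme gene of the myelin lineage, differed by -0.29 in C2 (adjusted p = 0.0236) and 0.44 in C4 (adjusted p = 0.00154). The others that rose in C4 were not called in C2. They were Pdgfra (0.94, adjusted p = 0.0177), Cspg4 (0.61, adjusted p = 0.0285) and Olig1 (0.26, adjusted p = 0.00981). The call of Cspg4 was lost with a robust variance prior (adjusted p = 0.0684). The other 4 measured genes of this list, Sox10, Mbp, Mog and Mag, were near the floor (means of 2.57, 2.27, 2.27 and 2.27). The part of this lineage in the results for the astrocyte markers was not tested.

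The list for neural stem and progenitor cells had 11 measured genes, of which 4 rose in C4 and 1, Vim, fell. Fabp7, the fatty acid-binding protein of radial glia, rose by 0.34 (adjusted p = 0.000665) and the EGF receptor gene Egfr by 0.83 (adjusted p = 7.72e-05), whereas Sox2 had a difference of -0.07 (adjusted p = 0.577). The list mean ran from 8.73 to 8.78 in Ctr, 8.72 to 8.78 in C2 and 8.94 to 9.02 in C4. Of 10 genes of microglia and macrophages only the lysosomal gene Cd68 was over 4 on at least 3 arrays, and it fell by 2.72 in C4 (adjusted p = 8.43e-05). The list means for microglia ran from 2.96 to 3.01 in Ctr and from 2.70 to 2.73 in C4. The 7 endothelial genes and the 8 genes of pericytes and fibroblasts were all near the floor, with list means up to 2.34 and 2.35. Of 5 measured genes of olfactory ensheathing cells only Fbln2, a matrix protein, was above it, and it rose by 1.22 in C4 (adjusted p = 0.00269). Neuronal genes were near the floor except Map2 and Gad1. Gad1 was called lower in C4 (-0.37, adjusted p = 0.0152), a call lost with a robust variance prior (adjusted p = 0.053). Its other probe set was not called, with a C4 difference of 0.00076. Of the ependymal genes only Foxj1 exceeded 4 on at least 3 arrays (4.10 ± 0.20 in Ctr and 3.69 ± 0.11 in C4, mean ± SD, n = 3).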

How the data were processed

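Messenger RNA was measured on 9 Affymetrix arrays, 3 in each condition. The deposited log2 values, which the authors made with GCRMA (a background correction by probe sequence), were used unchanged. The version of GCRMA is not given in the sources used here. GCRMA sets absent transcripts to a common low value, and low levels are compressed. In all, 12350 probe sets were constant over the arrays, and not all of these were at the floor. A Gja1 probe set held 11.13 and a Clu probe set 5.05. Exact ties between arrays also occurred above the floor, such as 7.78 for S100b in C2 replicates 1 and 2. The origin of these equal values was not tested. Of 45101 probe sets, 64 controls were left out. Symbols came from the platform annotation (34945 probe sets with 1 symbol, 932 with several, 9160 with none), and positions and promoters from RefSeq on GRCm38.p6.

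Conditions were compared with limma 3.58.1 in R 4.3.3, 1 mean per condition, with an intensity-dependent variance prior (trend) and Benjamini-Hochberg adjustment over 45037 probe sets. The procedure was tested on simulated data. Alternatives were the arrays compared alone, the replicate number as a block, a filter on low values, other variance priors, centred arrays, other choices of probe set, leaving out each array and a stricter threshold.

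The markers and the gene lists were chosen with earlier results of these data known. All probe sets of the markers are named. From the lists of other astrocyte genes and regulators, the 6 with the smallest p in C4 in each direction are named, partners beside their marker, and from other cell types those of highest mean or with a called difference of at least 1. Ndrg2, Fgfr3, the reactive astrocyte genes and genes named as near the floor fall outside this rule. So do the regulators named as not passing (Stat3, Nfia and Nfib) and the glutamate transporters. All of these were chosen after their values were seen. For 1 number per gene the probe set of highest mean was used. The number of arrays limits the precision.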

Additional observations from a re-analysis of the deposited data

How the results depend on the processing

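The 6 markers called in C4 against Ctr and the 5 called in C4 against C2 numbered the same without any 1 array (6 and 5 in each of the 9 fits). Of 507 single-marker differences recomputed, 480 kept their direction and their side of the threshold, 3 became 0 (Clu without probe sets of the _x_at and _s_at types, where a constant probe set stood for it), 10 lost the call, 11 gained it and 3 changed sign. Those 3 were differences that did not pass: Gja1 in C4 was -0.089 without probe sets of the _x_at and _s_at types, Clu in C4 was -0.00042 without C4 replicate 1 (-0.00042 to 0.112 over the arrays left out), and Gfap in C4 against C2 was 0.0096 without C2 replicate 3 (-0.30 to 0.0096). For the stricter threshold (adjusted p under 0.01 and a difference of at least 1), C4 against Ctr had 3 markers and 8 other astrocyte genes, C2 against Ctr 0 and 0, and C4 against C2 2 and 6. In C2 against Ctr, where 2 markers and 7 other astrocyte genes were called, the markers numbered 1 with the arrays of the 2 conditions alone, 5 with the filter on low values, 5 with centred arrays and 0 with the robust variance prior, and 1 to 2 without 1 array. The other astrocyte genes in C2 numbered 0 with the robust variance prior and 3 to 7 without 1 array, with 3 without Ctr 1, Ctr 2 or C2 3 and 4 without Ctr 3, C2 1 or C2 2. In C4 against C2 they numbered 13 with the robust variance prior, and 13 to 19 without 1 array, 13 being without C2 replicate 2. In C4 against Ctr they numbered 16 to 20 without 1 array.

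Whether single called genes and the stricter threshold held under the other fits was examined after seeing the data. The C2 calls of Aldh1l2 and Shmt2 were lost without any 1 of the Ctr or C2 arrays, that of Mthfd2 without Ctr 2, C2 1 or C2 3, that of Gpr17 without any Ctr array, C2 1, C4 2 or C4 3, and that of Cnp without Ctr 3 or any C2 array. The C2 call of Dbi was lost in 11 of 16 other fits and the C4 call of Ctsb in 9 of 16.

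The replicate numbers are shared by the conditions in the labels, without a statement of what they mean. Correlations of the deviations of same-numbered arrays were low, from -0.043 to 0.13 over 9 pairs. Those of the other pairs ran from -0.12 to 0.092, so the 2 same-numbered pairs over 0.1 were the highest. The numbers were not taken as pairs. With the replicate number as a block, 5 markers instead of 6 were called in C4, as Aqp4 kept its difference of 0.72 at an adjusted p of 0.0522, and 3 other astrocyte genes instead of 7 were called in C2.

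The limits lie in the number of arrays and in the floor. Gfap was near the floor, and the differences of Glul, Gja1 and Clu did not pass, which does not show that these genes were at equal levels. Fits that leave out 1 array rest on 2 arrays in 1 condition, whose spread is pooled with the other conditions. Whether the cells or the animals differed between arrays was not tested.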
